A study of Mus musculus with 4 samples.

Results

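The nuclear genes of oxidative phosphorylation were taken from a study of fructose and ChREBP in primary mouse hepatocytes. The set held every gene whose platform symbol names a subunit family of the 5 complexes: Nduf (with the letters a, b, c, s or v and a number), Sdha to Sdhd, Uqcr, Cox4 to Cox8 and Atp5. It came to 80 of 22180 named genes. Complex I had 31 of them, complex II 4, complex III 8, complex IV 19 and complex V 18. Ndufa4 and its paralog Ndufa4l2 were placed with complex IV, where the Ndufa4 protein is a subunit. The pattern also took 2 pseudogenes (Uqcrh-ps1 and Atp5c1-ps), tissue-restricted isoforms, and Cox7a2l, which joins complexes III and IV into supercomplexes.

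Hepatocytes came from male mice 2 months old and were kept without serum for 16 h. The 4 groups were Chrebp-KO cells with 25 mM fructose, Chrebp-KO cells without it (control), wild-type (WT) cells with 25 mM fructose and WT control cells. Each group was measured on 1 whole-transcript array, and the labels do not say how many mice or cultures stand behind an array or which part of Chrebp was deleted. The spread between samples of a group is therefore unknown and nothing below was tested: "higher" and "lower" describe single arrays. The extraction note in the labels speaks of liver RNA, while every other label names isolated hepatocytes.

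Oxidative phosphorylation passes electrons from NADH (complex I) and succinate (complex II) through complex III to oxygen at complex IV. The protons pumped on the way drive ATP synthase, complex V. Most subunits are encoded in the nucleus, and the rest on mitochondrial DNA. Hepatocytes are rich in mitochondria and use this chain to pay for glucose production and the urea cycle. ChREBP (gene Mlxipl) is a sugar-activated transcription factor known for glycolytic and lipogenic targets.

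Levels are log2 values after robust multi-array average (RMA), so a difference of 1 is 2-fold, and the level of one gene's probes cannot be set against that of another. A background level of 4.764 was taken from 1105 olfactory receptor genes. Mlxipl had levels of 7.37 on the KO fructose array and 7.42 on the KO control array, against 8.43 in WT fructose and 8.08 in WT control. It was thus lower on both KO arrays, and still well above background there. All 10 hepatocyte markers looked at were above background, Alb (albumin) at 12.58 to 12.66 on the 4 arrays. Not all of them were as steady as Alb with fructose. Tat differed by 2.22 in WT and 2.01 in KO, Cps1 by 1.41 and 1.40, Fah by 0.67 and 0.55 and Hnf4a by -0.75 and -0.50. The medians of the 10 markers with fructose were 0.10 in WT and 0.11 in KO. Between 10368 and 10447 named genes lay above background per array.

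Of the 80 genes, 66 were above background on all 4 arrays, 4 (Ndufb11, Ndufs5, Cox6a2 and Cox7c) on some and 10 on none. Those on none were the isoforms Cox4i2, Cox6b2, Cox7a1, Cox7b2, Cox8b and Cox8c, both pseudogenes, and Atp5g1 and Atp5j2. A further 5 subunit genes, Ndufb2, Ndufb4, Ndufs6, Uqcr10 and Cox6c, had only probe sets shared with other genes and were not analysed here.

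Promoters are shown for the 6 genes with the largest mean absolute difference over the 4 direct comparisons among those with a promoter listed. They were read from RefSeq (GRCm38.p6), from 250 bases before to 50 after the start. Capitals mark matches, on either strand, to the letters searched: GCATGCGC (NRF1 core), CCGGAAG (ETS factors such as GABP), GCCATNTT (YY1), TCAAGGTCA (ERR), CCAAT and CACGTG (E-box).
Ndufa9, chr6:126849095-126849394, minus strand: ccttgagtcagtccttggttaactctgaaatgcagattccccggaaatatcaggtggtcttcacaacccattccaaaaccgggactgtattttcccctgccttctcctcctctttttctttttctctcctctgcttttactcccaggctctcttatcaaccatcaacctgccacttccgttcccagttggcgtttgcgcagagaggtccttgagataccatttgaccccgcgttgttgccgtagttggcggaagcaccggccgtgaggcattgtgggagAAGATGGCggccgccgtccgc
Ndufs7, chr10:80249199-80249498, plus strand: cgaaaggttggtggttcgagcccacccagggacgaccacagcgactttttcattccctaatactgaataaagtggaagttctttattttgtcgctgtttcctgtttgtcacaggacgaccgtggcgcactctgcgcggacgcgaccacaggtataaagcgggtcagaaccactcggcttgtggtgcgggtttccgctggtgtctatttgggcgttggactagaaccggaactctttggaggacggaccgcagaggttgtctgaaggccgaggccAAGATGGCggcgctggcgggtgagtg
Ndufs4, chr13:114388045-114388344, minus strand: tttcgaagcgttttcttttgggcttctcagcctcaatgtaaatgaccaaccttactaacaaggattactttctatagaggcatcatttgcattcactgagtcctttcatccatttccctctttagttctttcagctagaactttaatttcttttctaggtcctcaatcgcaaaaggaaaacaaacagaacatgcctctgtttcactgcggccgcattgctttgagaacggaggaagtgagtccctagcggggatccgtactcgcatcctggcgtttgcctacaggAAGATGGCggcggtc
Ndufb11, chrX:20617570-20617869, minus strand: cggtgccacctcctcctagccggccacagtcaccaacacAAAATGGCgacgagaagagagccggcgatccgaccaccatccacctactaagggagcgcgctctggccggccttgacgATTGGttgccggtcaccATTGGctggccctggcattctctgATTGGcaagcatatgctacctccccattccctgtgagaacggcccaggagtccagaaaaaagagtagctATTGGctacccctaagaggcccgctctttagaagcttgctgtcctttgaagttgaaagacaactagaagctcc
Cox6b1, chr7:30626065-30626364, minus strand: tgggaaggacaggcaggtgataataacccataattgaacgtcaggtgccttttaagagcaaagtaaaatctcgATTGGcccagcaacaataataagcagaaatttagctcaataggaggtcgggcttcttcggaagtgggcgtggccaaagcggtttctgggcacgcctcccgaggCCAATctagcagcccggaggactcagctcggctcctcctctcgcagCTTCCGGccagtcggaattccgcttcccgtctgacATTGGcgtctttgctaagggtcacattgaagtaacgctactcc
Ndufb3, chr1:58586147-58586446, plus strand: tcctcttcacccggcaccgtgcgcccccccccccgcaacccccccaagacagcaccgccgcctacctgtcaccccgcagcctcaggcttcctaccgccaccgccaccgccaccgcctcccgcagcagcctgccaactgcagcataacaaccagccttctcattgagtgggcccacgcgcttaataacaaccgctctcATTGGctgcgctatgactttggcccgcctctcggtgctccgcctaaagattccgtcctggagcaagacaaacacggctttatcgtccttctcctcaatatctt

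Ndufa9, Ndufs7 and Ndufs4 each had the YY1 letters downstream of the start, beginning 29, 24 and 35 bases after it. These letters contain ATG, so a start codon in that context also matches. Ndufb11 had them far upstream of its start. Cox6b1 had an ETS match, and Ndufb11, Cox6b1 and Ndufb3 had CCAAT matches. Of 28 complex I genes above background with a listed promoter, 11 (39.3%) held the YY1 letters, against 4 of the 30 such genes of the other complexes. Over the 8714 named genes above background with a promoter, 9.94% held them, and over all 27025 genes with a promoter 6.96%. The ETS letters were in 29.3% of the 58 OXPHOS genes above background with a promoter, against 19.8% of those 8714 genes, and the NRF1 letters in 17.2% against 5.91%. Within complex I these shares were 14.3% and 10.7%, so the ETS letters were less frequent there than over the 8714 genes. The E-box letters were in 8.62% of the OXPHOS genes and 11.9% of the 8714, and exact CACGTG repeats with 5 bases between, as in the ideal ChREBP site, were in no listed promoter of any gene. A match of letters is a description of the sequence only.

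The OXPHOS genes differed little between arrays. In 40 of the 70 genes above background on at least 1 array, the WT fructose array had the lowest of the 4 levels, where 35.9% of all named genes above background did. The KO control array had the highest level in 34 of the 70, against 24.6% of all named genes. Within complex I these counts were 24 of 31 lowest in WT fructose and 19 of 31 highest in KO control. In complex V, 9 of 15 were lowest in WT fructose and 7 highest in KO control. The level plot shows how close the arrays lie.

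**Figure D1:**
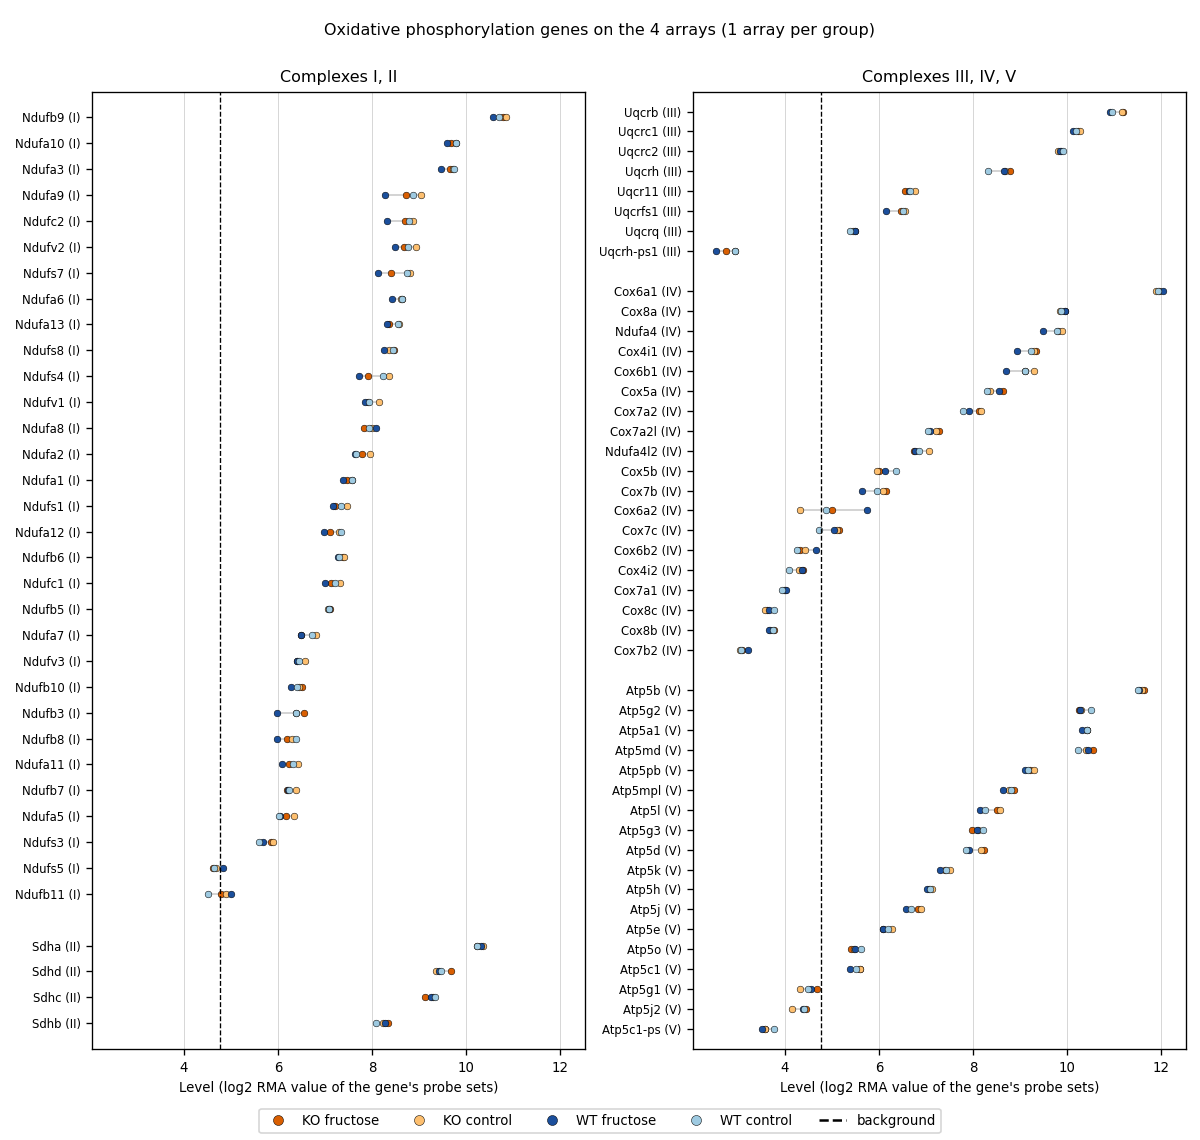
Level (log2 RMA value, x axis) of each of the 80 genes on the 4 arrays, 1 point per array, with genes in rows by complex and a dashed line at the background of 4.764. Most genes span well under 1 log2 unit. Cox6a2 spans the widest range, 4.32 to 5.74, and 10 genes lie left of the line on all arrays.

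In WT hepatocytes, complex I genes had the lowest median difference with fructose, followed by complex V. Of 70 genes above background, 50 were below 0, where 52.5% of 10814 named genes were. The median was -0.11 (quartiles -0.22 and 0.02) and that of all named genes -0.03 (-0.31 and 0.25). Without the background filter 55 of 80 were below 0, with a median of -0.09. By complex, the median was -0.20 for complex I (25 of 31 below 0), 0.02 for complex II (2 of 4), -0.05 for complex III (5 of 7), 0.03 for complex IV (6 of 13) and -0.11 for complex V (12 of 15). At 1.5-fold (0.585 on the log2 scale) 2 genes were lower, Ndufs7 and Ndufa9, against 10.8% of named genes, and 1 was higher, Cox6a2, against 9.46%. At 1.2-fold 14 were lower (28.1% of named genes) and 4 higher (24%), or 3 with dim values raised to the background, so large differences were less frequent here than over all genes.

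Ndufs7, the core subunit that holds the last iron-sulphur cluster before ubiquinone, had a level of 8.13 with fructose and 8.74 without in WT cells. In KO cells it was 8.39 with fructose and 8.80 without, so both fructose arrays were below both control arrays. The difference was -0.61 in WT and -0.41 in KO. Ndufa9, an accessory subunit near the ubiquinone site, had 8.28 with fructose and 8.87 without in WT cells, and 8.71 with fructose and 9.05 without in KO cells. Its differences were -0.59 and -0.34. Ndufs4, an accessory subunit of the NADH-oxidising module whose loss causes Leigh syndrome in humans, was at 7.72 and 8.23 on the WT fructose and control arrays, and at 7.91 and 8.37 on those of KO. It differed by -0.51 in WT and -0.45 in KO, the lowest value of the set in KO. For all 3 genes the order of arrays was the same: WT fructose lowest, then KO fructose, WT control and KO control.

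Among the other catalytic core subunits of complex I, the difference with fructose in WT was -0.28 for Ndufv2, -0.20 for Ndufs8, -0.17 for Ndufs1, -0.08 for Ndufv1, the FMN-binding subunit, and 0.09 for Ndufs3. The 6 core subunits measured had a median of -0.18 and the 25 accessory ones of -0.20, so the lower values were spread over both classes. Of the accessory subunits, Ndufc2 (-0.47), Ndufb8 (-0.41) and Ndufb3 (-0.41), all of the membrane arm, were lower, as were Ndufa12 (-0.36) and Ndufa3 (-0.28), each by over 1.2-fold. Ndufb11, also of the membrane arm, went the other way at 0.49, but its WT control level of 4.51 lay below background, so fructose was at least 1.18-fold higher. Ndufs5 was above background on the WT fructose array alone, and Ndufa8 differed by 0.16.

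Complexes II, III and V held narrower ranges in WT cells. The succinate dehydrogenase genes ran from -0.09 (Sdhc, a membrane anchor) to 0.19 (Sdhb, the iron-sulphur subunit), with Sdha, the flavoprotein, at 0.10 and Sdhd at -0.06. In complex III, Uqcrfs1, the Rieske iron-sulphur protein, was at 6.15 with fructose and 6.52 without, a difference of -0.37. Uqcrh, the hinge protein that aids cytochrome c transfer, was at 8.66 with fructose and 8.31 without, a difference of 0.35. The core proteins Uqcrc1 and Uqcrc2 differed by -0.06 and -0.05, and Uqcrq by 0.11. In complex V every gene was within 1.2-fold. The values ran from -0.22 (Atp5g2, the c-ring subunit) to 0.20 (Atp5md, a small subunit of the dimer interface). The F1 head subunits Atp5a1 and Atp5b, alpha and catalytic beta, differed by -0.10 and 0.02, and the 4 peripheral stalk genes Atp5pb, Atp5h, Atp5j and Atp5o by -0.13 to -0.07.

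Complex IV genes went both ways in WT cells. Cox6b1 (-0.40), Cox7b (-0.32), Cox4i1 (-0.30) and Ndufa4 (-0.29) were lower with fructose, and Cox5a (0.25) was higher. Cox7c was at 5.03 with fructose and at 4.72, just under background, without. Cox6a2, the isoform of heart and skeletal muscle, was the most different gene of the set. Its level was 5.74 with fructose and 4.87 without in WT cells, a 1.83-fold difference. In KO cells it was 4.99 with fructose and 4.32, below background, without, so at least 1.17-fold higher. Fructose was higher in both genotypes, and each KO array was below its WT counterpart. Its liver counterpart Cox6a1 differed by 0.12 in WT and 0.06 in KO. Of the muscle markers Ckm, Myh7, Actn2 and Mb, only Mb was above background, on the KO control array alone (4.86).

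The other isoform pairs showed the liver form above background and the restricted form below it. Cox4i1, Cox6b1, Cox7a2, Cox7b and Cox8a were above background on all 4 arrays, while Cox4i2 (4.09 to 4.39), Cox6b2 (4.25 to 4.65), Cox7a1 (3.93 to 4.01), Cox7b2 (3.05 to 3.22), Cox8b (3.66 to 3.76) and Cox8c (3.58 to 3.76) were not on any. The c-ring protein is encoded by 3 genes, of which Atp5g2 and Atp5g3 were above background and Atp5g1 (4.31 to 4.67) was not. Levels of different probes cannot be compared, so a value below background does not show that a gene was silent. Ndufa4l2, the hypoxia-linked paralog of Ndufa4, was above background, at 6.74 in KO fructose, 7.07 in KO control, 6.77 in WT fructose and 6.86 in WT control.

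In KO hepatocytes, complex I genes were again lower with fructose, by less than 1.5-fold each. Of 69 genes above background, 45 were below 0, where 50.6% of 10752 named genes were. The median was -0.07 and that of all named genes 0.00. Without the filter 49 of 80 were below 0. Complex I had a median of -0.17 (25 of 30 below 0), complex II -0.02, complex III 0.02, complex IV 0.05 and complex V -0.05 (11 of 15 below 0). At 1.5-fold 0 genes were lower (5.75% of named genes) and Cox6a2 was higher (6.11%), a call that is lost (0.23) when its dim KO control value is raised to the background. At 1.2-fold 6 were lower (21.4%) and 3 higher (21.4%), or 2 higher with that value raised. Besides Ndufs4, Ndufs7 and Ndufa9, those lower at 1.2-fold were Ndufa7 (-0.30), Ndufs1 (-0.27) and Ndufa4l2 (-0.34). Besides Cox6a2, those higher were Sdhd (0.32), the small membrane anchor of complex II, and Cox5a (0.28). Sdhd had a level of 9.69 in KO fructose and 9.37 in KO control, against -0.06 as its difference in WT.

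The WT and KO fructose differences come from separate arrays, and 39 of 69 genes were below 0 in both, where 40.8% of 10516 named genes were. A further 13 were above 0 in both, where 37.6% of named genes were. Within complex I, 21 of 30 were below 0 in both and 1, Ndufb5, above 0 in both (0.02 in WT and 0.03 in KO). In complex V, 11 of 15 were below 0 in both. Within complex I the correlation of both differences was 0.32. It was 0.58 across the 69 genes and 0.83 across all named genes, which share the same 4 arrays. Cox6a2 lies far from the other genes in that relation, as the scatter plot shows.

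**Figure D2:**
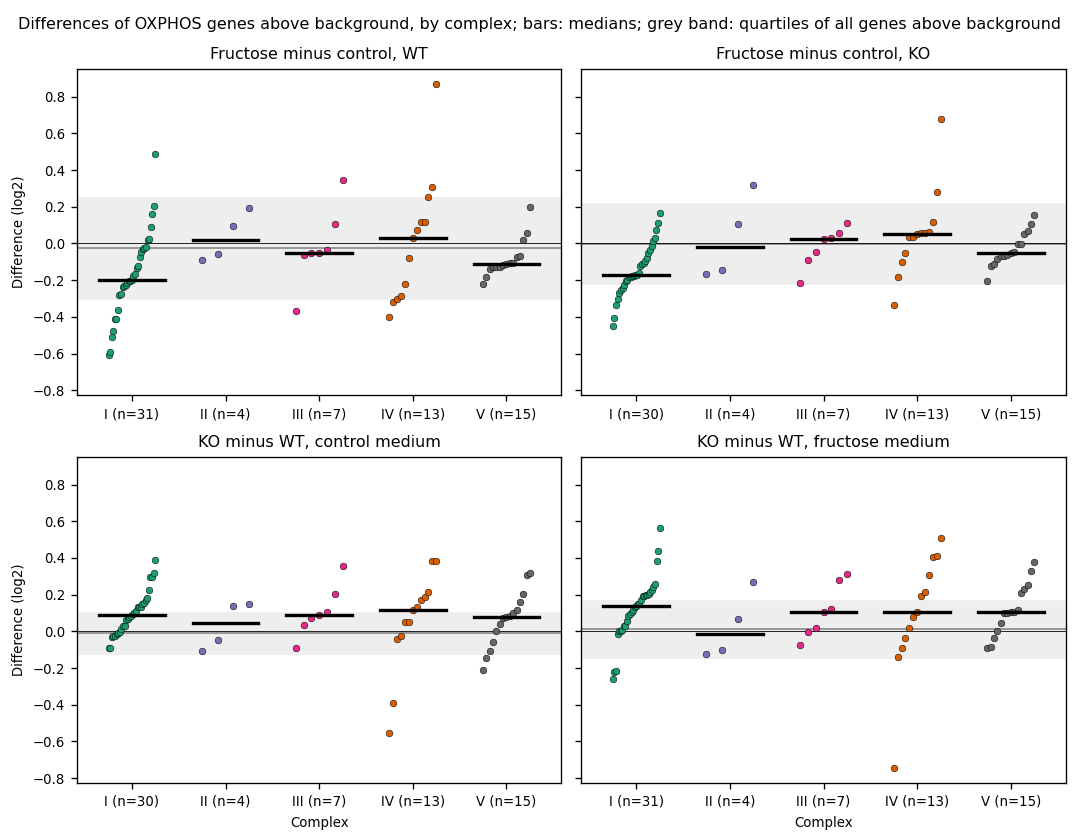
Log2 difference (y axis) of each gene above background, 1 point per gene, by complex (x axis) for the 4 direct comparisons, with black bars at complex medians and a grey band for the quartiles of all named genes above background. Complex I medians are -0.20 in WT and -0.17 in KO for fructose, and 0.09 and 0.14 for KO minus WT in control and fructose medium.

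In control medium, KO cells had slightly higher levels of OXPHOS genes than WT cells. Of 69 genes above background, 49 were above 0, where 48% of 10720 named genes were. The median was 0.08 (quartiles -0.01 and 0.16), with -0.01 over all named genes, of which 52% were below 0, as were 20 of the 69. Without the filter 53 of 80 were above 0. The medians were 0.09 for complex I, 0.05 for II, 0.09 for III, 0.12 for IV and 0.08 for V. At 1.5-fold 0 genes were higher (0.476% of named genes) and 0 lower (1.1%). At 1.2-fold 9 were higher (6.15%) and 2 lower (8.7%), or 8 and 1 with dim values raised to the background, which puts Ndufb11 at 0.14 and Cox6a2 at -0.10.

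The 9 were Ndufb11 (0.39) and Cox7c (0.38), both with WT control below background (Cox7c thus at least 1.27-fold higher), Cox7a2 (0.38), Uqcrh (0.36), Atp5d (0.32), Ndufa5 (0.32), Atp5l (0.31), Ndufa2 (0.30) and Ndufs3 (0.30). Cox7a2, the liver form of a small complex IV subunit, was at 8.17 in KO control and 7.79 in WT control. Ndufs3, a core subunit of complex I, was at 5.89 in KO control and 5.59 in WT control. Atp5l, subunit g of ATP synthase, was at 8.57 in KO control and 8.26 in WT control, and also higher in fructose medium, at 8.52 in KO against 8.14 in WT. Atp5d, the delta subunit of the F1 head, rests on probe sets that disagree: 1 gave 0.66 for KO minus WT in control medium and the other -0.03. Cox6a2 (at least 1.07-fold lower) and Cox5b (-0.39) were the 2 lower genes, and the Cox5b value comes mainly from a probe set below background (-0.67, with -0.12 for the brighter one).

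In fructose medium the same direction was seen over more genes, though the genes that differed most were mostly others. This comparison shares its WT fructose array with the fructose difference in WT, so a low value on that array enters both. Of 70 genes above background, 55 were above 0 in KO, where 52.5% of 10688 named genes were, and the median was 0.11 (quartiles 0.01 and 0.22) with 0.01 over all named genes. Without the filter 61 of 80 were above 0. Complex I had a median of 0.14 (27 of 31 above 0), complex III 0.10 (5 of 7), complex IV 0.11 (9 of 13) and complex V 0.10 (12 of 15), while complex II stood at -0.02. At 1.5-fold 0 genes were higher (2.45% of named genes) and 1, Cox6a2, was lower (2.86%), at 4.99 in KO fructose and 5.74 in WT fructose, 1.68-fold. At 1.2-fold 12 were higher (14.8%) and 1 lower (13.6%).

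Ndufb3, an accessory subunit of the complex I membrane arm, was the highest, at 6.55 in KO fructose and 5.98 in WT fructose, a difference of 0.57. Its control levels were 6.38 in KO and 6.39 in WT, so the arrays parted in fructose medium only. Cox7b, a small complex IV subunit, differed by 0.51, and by 0.50 in the only one of its probe sets above background, which was also higher in KO control (0.41, and 0.13 for the mean of both). Ndufa9 (0.44), Cox6b1 (0.41), Cox4i1 (0.41), Ndufc2 (0.38), Atp5l (0.38), Atp5d (0.33, with probe sets at 0.05 and 0.61), Uqcrfs1 (0.31), Ndufa4 (0.31), Uqcrb (0.28) and Sdhd (0.27) made up the rest of the 12. Of the 12, all but Atp5l, Atp5d, Uqcrb and Sdhd were also at least 1.2-fold lower with fructose in WT. Both comparisons use the WT fructose array, so they are not separate results for these genes. Cox4i1, the ubiquitous form of its subunit, was at 9.35 in KO fructose and 9.29 in KO control, against 8.94 in WT fructose and 9.24 in WT control. The WT fructose array alone stood low for this gene. Lowest after Cox6a2 were Ndufa8 (-0.26) and Ndufb11 (-0.22), both of complex I.

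Over both media, 42 of 69 genes were above 0 in KO, where 30.1% of 10358 named genes were, and 7 were below 0, where 29.3% were. Complex I had 19 of 30 above 0 and 0 below 0 in both media. The 7 were Sdhc, Cox5b, Cox6a1, Cox6a2, Atp5g2, Atp5g3 and Atp5o. The c-ring genes above background were among them, Atp5g2 at -0.04 in fructose and -0.21 in control medium and Atp5g3 at -0.09 and -0.11, all within 1.2-fold. Across the 69 genes the differences in control and in fructose medium had a correlation of 0.40, with 0.35 across all named genes. Within complex I it was -0.27, so the size of the difference was not shared gene by gene there.

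Most macrophage markers and the endothelial markers above background were lower in KO beside these values. In KO, 7 of 8 macrophage markers above background were lower in control medium (median -0.53) and 8 of 9 in fructose medium (-0.56), and all 5 endothelial markers were lower in both (-0.46 and -0.38). Over all named genes 52% were lower in KO in control medium and 47.5% in fructose medium. Levels of the markers looked at were also summed on the unlogged scale and the log2 of the sum was taken. For the 7 endothelial markers this sum was 9.03 in KO fructose and 9.13 in KO control, against 9.49 in WT fructose and 9.64 in WT control. For the 10 macrophage markers the sum was 11.44 and 11.37 in KO, against 11.20 and 11.43 in WT. It mostly reflects the bright probes of Cd68, so it does not follow the count of markers. Vsig4, Stab2 and Clec4g were below background on all arrays. Their part in the OXPHOS values was not tested, and fewer cells of a type cannot be told apart from less RNA per cell. Hepatocyte markers had medians of 0.00 in control and 0.05 in fructose medium. The 2 stellate markers above background in control medium had a median of -0.26. The 3 in fructose medium had a median of -0.08, with Reln higher in KO (0.36). Sox9, the only cholangiocyte marker above background, was at -0.44 in control and -0.09 in fructose medium.

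**Figure D3:**
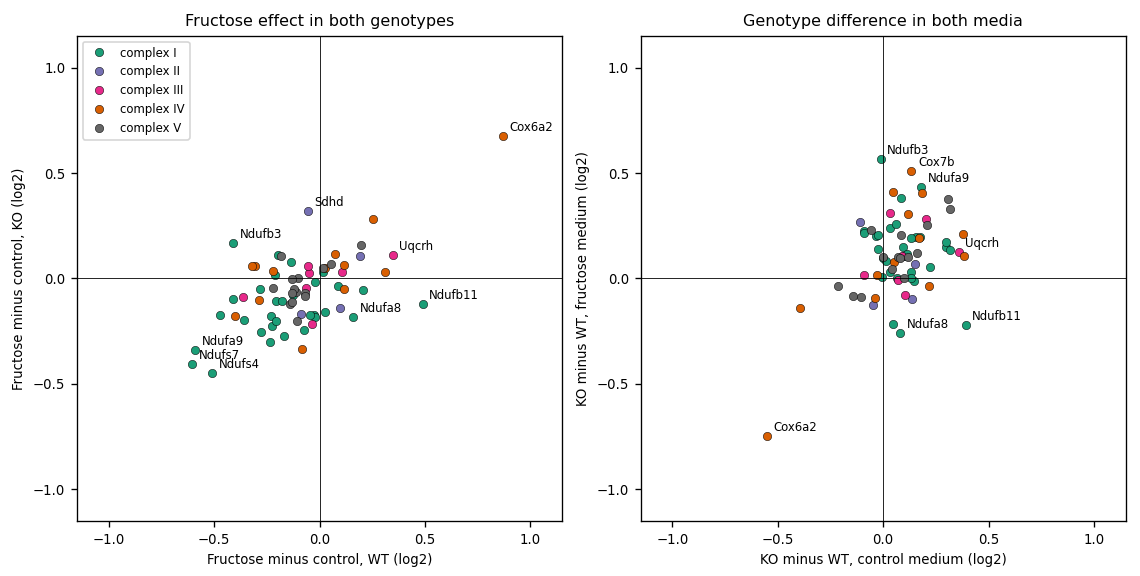
Each point is 1 gene above background on at least 1 array, coloured by complex. Left, the fructose difference in WT (x axis) against that in KO (y axis), and right, KO minus WT in control (x axis) against fructose medium (y axis), all in log2. Ndufs7, Ndufa9 and Ndufs4 lie at the lower left of the left panel, and Cox6a2 lies apart in both.

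The fructose difference of KO cells minus that of WT cells had a median of 0.02 over 70 genes, with 0.03 over 11050 named genes. Of the 70, 44 were above 0, where 55% of named genes were, and 26 below 0, where 45% were. This split depended on scaling: it was 36 above and 34 below after repeated quantile normalization, and 31 and 39 after a loess correction. At 1.5-fold 0 were higher (2.86% of named genes) and 1, Ndufb11 (-0.61), was lower (2.6%), with WT control below background. With dim values raised to the background Ndufb11 is at -0.36, under 1.5-fold, and Cox6a2 is at -0.64 (-0.19 as measured), so neither call holds both ways. The highest were Ndufb3 (0.58), Sdhd (0.38) and Cox4i1 (0.36) among genes above background on all arrays, with Cox7b (0.37) resting on its dim probe set (0.65, and 0.09 for the bright one). The lowest such gene was Ndufa8 (-0.34). No OXPHOS gene reached 2-fold in any comparison. Among named genes, 3.1% were 2-fold higher and 3.01% lower with fructose in WT, and 1.68% and 1.18% in KO. For KO minus WT these shares were 0.0373% and 0.196% in control medium and 0.543% and 0.739% in fructose medium, and for the difference of fructose effects 0.443% and 0.588%. For complex I the median was 0.02, and its median difference with fructose was of like size in both genotypes (-0.20 in WT and -0.17 in KO).

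Genes that build, feed and control the chain were compared in the same way. These lists were not tested against the subunits. Of the assembly factors, 38 of 45 above background were below 0 in WT, with a median of -0.32, and 37 of 44 in KO, with -0.29. Over all named genes 52.5% were below 0 in WT and 50.6% in KO. Complex I factors had medians of -0.38 and -0.45. At 1.2-fold 14 of these 16 were lower in WT and 10 of 15 in KO, with 0 higher in either, and at 1.5-fold 6 and 5. Over all named genes the shares lower were 28.1% and 21.4% at 1.2-fold and 10.8% and 5.75% at 1.5-fold. Tmem126b, of the complex that assembles the membrane arm, was at 5.60 with fructose and 6.81 without in WT cells, and at 5.83 and 6.90 in KO cells (-1.22 and -1.06). Lyrm2 (-1.16 and -1.11), Ndufaf7, a methyltransferase (5.53 with fructose and 6.53 without in WT, and -0.94 in KO), Timmdc1 (-0.84 and -0.93) and Acad9 (-0.60 and -0.66) were also lower in both genotypes, while Ndufaf4 was higher (0.24 and 0.16). All 5 complex III factors above background were below 0 in WT (median -0.52), led by Uqcc3 (-0.56) and Bcs1l (-0.55), the translocase of the Rieske protein. In KO 4 of the 5 were below 0, with a median of -0.23, and Ttc19 was at 0.10. The complex IV factors had medians of -0.17 and -0.15, with Cox20 (-0.77), Cox15 (-0.75), of haem A synthesis, and Coa6 (-0.64) lowest in WT, and Sco1, a copper chaperone, higher (0.62). Atpaf1, which assembles F1, differed by -0.75 in WT and -0.50 in KO.

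Mitochondrial ribosomal proteins, which make the mtDNA-encoded subunits, had medians of -0.20 in WT (53 of 66 below 0) and -0.14 in KO (55 of 66). Over all named genes 52.5% and 50.6% were below 0. At 1.2-fold 26 were lower and 4 higher in WT, where 28.1% and 24% of named genes were. In KO 18 were lower and 3 higher, where 21.4% of named genes were in each direction. At 1.5-fold 8 were lower in WT and 1 in KO, with 0 higher, near or under the shares over all named genes (10.8% and 5.75%). Mrpl49 was at -1.01 and -0.63 and Mrps25 at -0.98 and -0.58, while Mrps18b was at 0.49 and 0.41. Of 13 proteins encoded on mtDNA, 10 had a value, and their medians were -0.02 in WT and 0.02 in KO. The genes of the citrate cycle and pyruvate dehydrogenase, which supply NADH, had medians of -0.01 and -0.05. Within these, Pdhb, a pyruvate dehydrogenase subunit, stood apart, with a difference of 0.34 in KO (9.22 with fructose) and 2.31 in WT (11.31 with fructose).

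Regulators of OXPHOS genes went both ways with fructose in WT. Of 17 above background, 10 were above 0, all by at least 1.2-fold (24% of named genes), and 7 below 0, 3 of them by 1.2-fold (28.1%), with a median of 0.36. In KO 7 were at least 1.2-fold higher and 2 lower (21.4% of named genes each), with a median of 0.12. Gabpa, the DNA-binding subunit of the ETS factor GABP, was at 9.24 with fructose and 8.47 without in WT cells, and at 8.77 and 8.40 in KO cells. Nrf1, a transcription factor of many OXPHOS promoters, differed by 0.62 in WT and 0.34 in KO, Yy1 by 0.53 and 0.31, and the coactivators Ppargc1b by 0.87 and 0.34 and Pprc1 by 0.56 and 0.28. Esrra (-0.14 and -0.11) and Tfam, the mtDNA packaging factor (-0.03 and -0.25), were not higher, and Ppargc1a was below background on all arrays. Lrpprc, which stabilises mitochondrial mRNAs, was lower (-0.52 and -0.59). Cyc1, the cytochrome c1 subunit of complex III, differed by -0.02 and 0.09, cytochrome c (Cycs) by -0.04 and 0.24, and Atpif1, the inhibitor of ATP synthase, by -0.59 and -0.56.

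**Figure D4:**
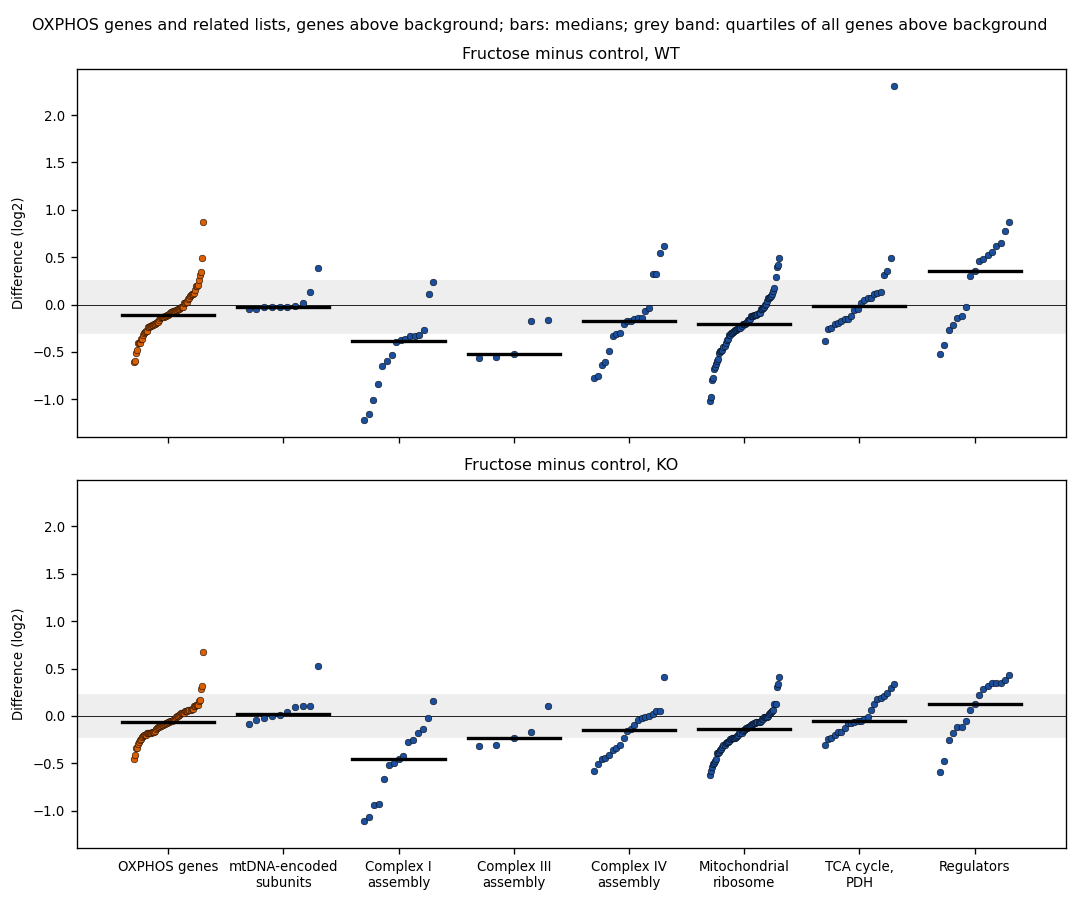
Log2 difference with fructose (y axis) in WT (top) and KO (bottom) of genes above background, 1 point per gene, for the OXPHOS genes (orange) and related lists (blue), with bars at medians and a grey band for the quartiles of all named genes. Complex I assembly factors lie lowest in KO, with medians of -0.38 in WT and -0.45 in KO, and regulators highest, with 0.36 and 0.12.

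Between genotypes, assembly factors had medians of 0.09 in control and 0.11 in fructose medium and mitochondrial ribosomal proteins of 0.04 and 0.09. Regulators had 0.03 and -0.16, with Gabpa at -0.47 and Twnk, the mtDNA helicase, at -0.61 in fructose medium. Citrate cycle genes had 0.07 and 0.00, with Pdhb at -2.09 in fructose medium.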

How the data were processed

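RNA from 4 hepatocyte samples (400 ng each) was hybridised to 1-colour whole-transcript arrays. The deposited log2 values were made by the authors with RMA in R 3.4.0, per the submitters' processing notes. RMA makes array distributions alike, so a shift shared by all genes cannot be seen. Build and annotation version: not given in the sources used here. The arrays' number, 1 per group, limits the precision of every value.

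Of 41345 probe sets, 23521 had 1 gene symbol, 1814 several and 16010 were unnamed here. OXPHOS genes came from 89 probe sets with 1 symbol, averaged per gene in log2 (9 genes had more than 1), and 10 with several symbols were left out. All 80 matched RefSeq by Entrez number. A gene entered a comparison when above the background (95th percentile of the mean of olfactory receptor genes) on at least 1 array compared. Folds against a dim side are lower bounds, with the background as the dim value. Differences were counted by sign and at 1.5-fold, with 2-fold and 1.2-fold as alternatives, and counts are set beside those over all named genes. No test was possible. Named were, per complex and comparison, up to 3 genes in each direction, all past 1.5-fold, the isoform pairs, and fixed regulators. Other genes listed at 1.2-fold were named after their values were seen. The counting was tested on simulated shifts. The genes and lists were chosen with earlier results of these data known. Alternatives were 3 scalings, 2 filters, the brightest probe set, core subunits only and means. Raising dim values to the background and moving Ndufa4 to complex I were added after seeing the data. Python 3.11.15, numpy 2.4.6, pandas 2.3.3 and statsmodels 0.14.6 were used.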

Additional observations from a re-analysis of the deposited data

Results flagged for a closer look

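3 genes differed in opposite directions in a pair of comparisons on separate arrays, by at least 1.1-fold each, and the difference was not tested. With 1 array per group this needs only 2 values of opposite sign. Ndufb3 was lower with fructose in WT (-0.41) and higher in KO (0.17). Ndufa8 was higher with fructose in WT (0.16) and lower in KO (-0.18), and its probe sets gave 0.27 and 0.04 in WT and -0.07 and -0.29 in KO. Ndufb11 was higher in KO than in WT in control medium (0.39) and lower in fructose medium (-0.22), with its WT control level below background (0.14 in control medium with that level raised to the background).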

How the results depend on the processing

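Of the values recomputed under alternatives, 421 moved by less than 0.1 (log2) or, for counts, by at most 1.5 times. A further 25 moved by more and 14 turned their sign, where a sign change of a median very near 0 was not counted. The split of signs for the difference of fructose effects, which turned with loess, is among the 421. The median over all OXPHOS genes kept its sign under every alternative for the 4 direct comparisons, and complex I stayed between -0.20 and -0.17 with fructose in WT and between -0.17 and -0.14 in KO. Those that turned were medians under 0.1 in size. For fructose in WT, complex II turned to -0.0118 with repeated quantile normalization, and complex IV to -0.0816 with the stricter filter and -0.0741 with core subunits only. For fructose in KO, complex III turned to -0.0107 without the filter and with the stricter one, and to -0.0177 with the mean, and complex II to 0.0297 with the mean. For KO minus WT in fructose medium, complex II turned to 0.0128 with quantile normalization and 0.0276 with the mean. With loess, the difference of fructose effects turned to -0.0188 over all OXPHOS genes, -0.0165 for complex I, -0.03 for III, -0.0112 for IV and -0.0199 for V. The cause was not tested. Counts at 1.5-fold are 0 to 2 and change with 1 gene. Cox6a2 is left out by the stricter filter and by core subunits only, which gives 0 higher with fructose in both genotypes and 0 lower in KO in fructose medium. Its KO fructose difference is under 1.5-fold (0 higher) when dim values are raised to the background. With loess, 1 gene was lower with fructose in WT and 0 in the difference of effects, where the stricter filter also gave 0 lower and centring gave 1 higher. No gene reached 2-fold in any comparison (0 in each direction). At 1.2-fold the counts were 4 higher and 14 lower for fructose in WT, 3 and 6 in KO, 9 and 2 for KO minus WT in control medium, 12 higher in fructose medium, and 9 and 3 for the difference of effects. No paired analysis was possible because each group has 1 array and the labels give no replicate numbers.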

Other observations

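Among the mtDNA-encoded subunits, ND6, the only protein gene on the light strand, stood apart. Its level was 9.22 in KO fructose and 8.69 in KO control, against 9.64 in WT fructose and 9.25 in WT control. It was higher with fructose in both genotypes (0.39 in WT and 0.53 in KO) and lower in KO in both media (-0.56 in control and -0.43 in fructose medium). The other 9 differed by -0.10 to 0.15 in these comparisons, at levels of 11.10 to 12.73. Whether such bright probes were near saturation was not tested.

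The complex I genes with the YY1 letters in their promoter (11) had a median fructose difference of -0.24 in WT and -0.12 in KO, and those without (17) of -0.18 and -0.17. The order of the groups was thus opposite in the 2 genotypes. Over the OXPHOS genes of all complexes it was the same in both. Those with the letters (15) had medians of -0.205 in WT and -0.084 in KO, and those without (43) of -0.071 and -0.068. Dmac2l and Dmac2, 2 proteins once named as ATP synthase subunits, differed with fructose by -0.74 and 0.59 in WT. Dmac2l was at 4.95 with fructose and 5.69 without in WT cells, and at 4.64, below background, and 5.58 in KO cells. Higd1a, a hypoxia-induced protein of complex IV, was higher with fructose (0.38 in WT and 0.50 in KO), and Higd2a was lower (-0.43 and -0.06).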
